A study of Homo sapiens with 6 samples.

Results

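TXNIP, the 4 arrestin domain genes ARRDC1 to ARRDC4, the transcription factor gene MLXIP and the thioredoxin gene TXN were followed in the human osteosarcoma line HOS, with and without Agrimol B. They are 7 of the 16376 genes in the deposited table, found by symbol, and all 7 entered the test. The set was selected on symbols with earlier results of these data known, above all the rise of TXNIP, and the contrast between Agrimol B and control is the only contrast of the study. Differences of these 7 genes between the groups are therefore given as a description, with no p-value of their own. Agrimol B is a polyphenol of the agrimony plant. The treated group held 3 libraries of cells given Agrimol B for 24 h, and the control group held 3 libraries whose labels give the treatment as none. All cells were labelled wild type, the sources used here give neither the dose nor a solvent, and HOS stands for 1 tumour line. Levels are in FPKM (fragment counts scaled to gene length and library size). Differences are on the log2(FPKM + 1) scale, Agrimol B minus control, with the standard error (SE) from limma, and a ratio is that of the group means of FPKM.

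TXNIP is an arrestin-fold protein that binds reduced thioredoxin and restrains glucose uptake by promoting the internalisation of glucose transporters. ARRDC1 to ARRDC4 share that fold (the alpha-arrestins) and act as adaptors that bring ubiquitin ligases of the NEDD4 family to membrane proteins. MLXIP, also called MondoA, is a transcription factor that pairs with MLX, responds to glucose 6-phosphate, and is known to switch on TXNIP and ARRDC4. Thioredoxin, the product of TXN, is the small protein that reduces disulfides in other proteins and that TXNIP binds.

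Totals lay between 352990 and 359537 FPKM per library, and Pearson's r of log2(FPKM + 1) across tested genes was 0.9861 to 0.9884 within groups and 0.9468 to 0.9504 between them. Relative depth, estimated from genes under 0.05 FPKM, was 0.989 to 1.04 in control and 1.00 to 1.19 in Agrimol B libraries (control library 1 set to 1). It is a rough estimate. Each pair of libraries had 266 to 405 such genes, and only 4.98 to 10.48% of them lay near the common ratio. The number of reads behind a value is unknown. Of 8 osteoblast-lineage markers, 6 had a mean of at least 1 FPKM, led by COL1A1, while BGLAP, a late osteoblast marker, reached at most 0.221 FPKM. The summed level of these markers was 759 to 837 FPKM in control and 468 to 527 FPKM in Agrimol B libraries. COL1A1, SPARC and COL1A2 carried that sum, while SPP1 was higher in every Agrimol B library (6.35 to 8.59 against 3.39 to 3.73 FPKM) and RUNX2 overlapped between groups. ALPL was lower in every Agrimol B library (6.47 to 8.37 against 16.0 to 17.0 FPKM). Epithelial markers, chiefly the keratins KRT8 and KRT18, summed to 529 to 591 FPKM in control and 290 to 320 FPKM with Agrimol B. KRT8 made most of that gap (306 to 367 against 112 to 160 FPKM), while EPCAM overlapped between groups. CDH1, the epithelial cadherin, reached at most 0.439 FPKM in any library. The part of these markers in the differences below was not tested. The endothelial, muscle and blood markers in the table stayed under 1 FPKM as sums in every library. In bulk RNA, fewer cells with a transcript and less of it per cell cannot be told apart.

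All 5 arrestin-fold members passed the test as higher with Agrimol B, and MLXIP and TXN did not pass in either direction. TXNIP and ARRDC4 rose about 7.25-fold and 5.92-fold, while ARRDC1, ARRDC2 and ARRDC3 rose by less than 1.5-fold. These 5 of 7 genes stand beside 30.6% of the 12143 tested genes that passed as higher (limma, Benjamini-Hochberg adjusted p under 0.05), and the 0 of 7 beside 21.4% that passed as lower. Over all tested genes these were 3713 higher and 2598 lower, and with median-ratio scaling 3067 higher and 3164 lower. In the same 5 genes all 3 Agrimol B values lay above all 3 control values, which held for 36.2% of tested genes. In 1 gene, MLXIP, they lay below, which held for 26%. The median difference of the 7 genes was 0.36, against 0.07 over all tested genes. Since the genes were picked with this contrast known, nothing is read from these counts.

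TXNIP (chromosome 1, 145992435 to 145996600, minus strand, GRCh38) stood at 3.19, 3.69 and 3.02 FPKM in control libraries 1, 2 and 3. In the Agrimol B libraries it stood at 23.7, 23.4 and 24.6 FPKM. The lowest Agrimol B value was 6.36 times the highest control value, so the groups lay far apart. The means were 3.30 ± 0.347 FPKM in control and 23.9 ± 0.621 FPKM with Agrimol B (SD, n = 3), a ratio of 7.25 and a difference of 2.54 (SE 0.07, 95% interval 2.37 to 2.71). That difference was the 11th highest of all tested genes. In control cells the level of TXNIP exceeded that of 18.8% of tested genes, and with Agrimol B that of 74.1%.

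ARRDC4 (chromosome 15, 97960698 to 97973838, plus strand), an adaptor that like TXNIP is known to restrain glucose uptake, was the least abundant member in control cells. Its control values were 1.27, 1.38 and 1.24 FPKM. Its values with Agrimol B were 7.37, 7.42 and 8.22 FPKM. The groups again lay far apart, with the lowest Agrimol B value 5.35 times the highest control value. The means were 1.30 ± 0.0733 and 7.67 ± 0.477 FPKM (SD, n = 3), a ratio of 5.92 and a difference of 1.92 (SE 0.06, 95% interval 1.76 to 2.07), in place 34 from the top. The log2(FPKM + 1) scale understates the change of a gene this low, and with a pseudocount of 0.1 the difference of ARRDC4 was 2.48.

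**Figure D1:**
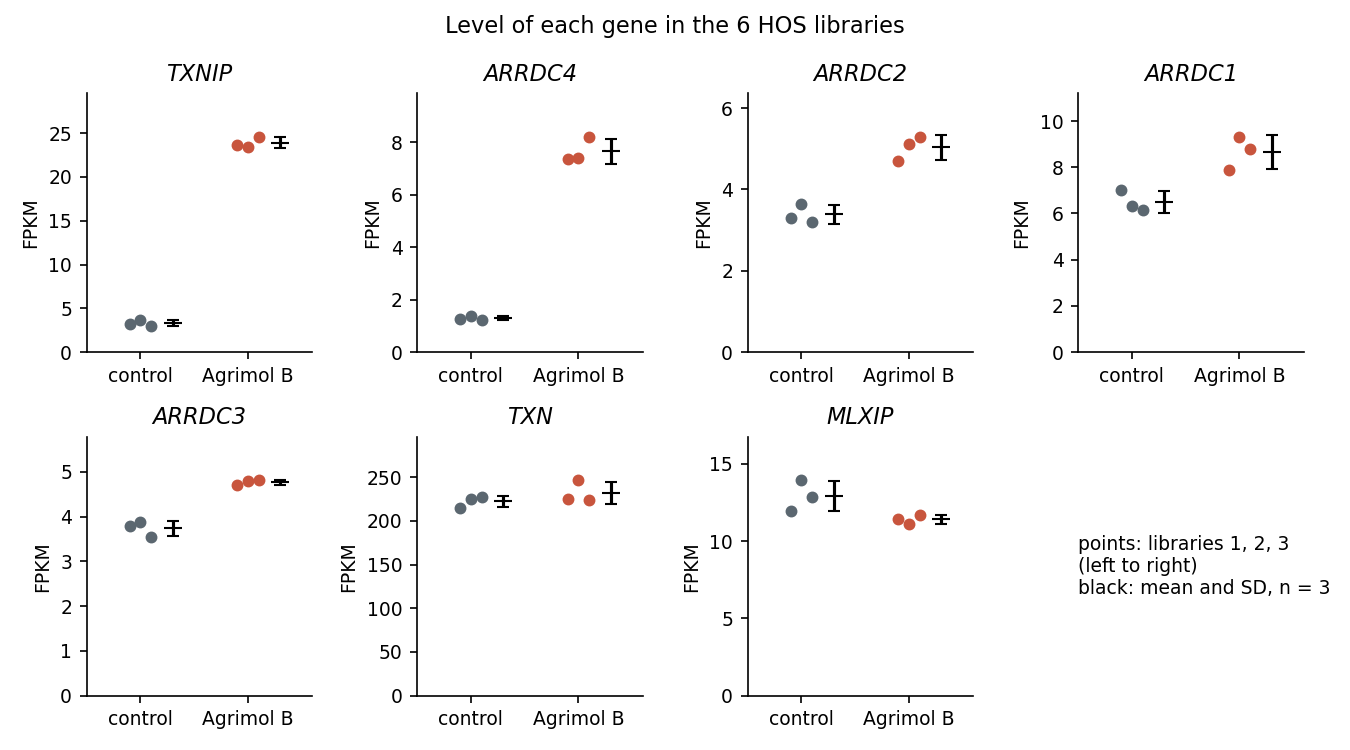
FPKM of each of the 7 genes (vertical axes from 0, each panel with its own range) in the 3 control and 3 Agrimol B libraries, with the group mean and SD beside the points. TXNIP and ARRDC4 stand several-fold higher with Agrimol B, ARRDC1, ARRDC2 and ARRDC3 stand 1.28 to 1.49 times higher without overlap, TXN overlaps between groups (its direction flips with median-ratio scaling), and MLXIP is 11.7% lower in mean.

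The windows around the starts of TXNIP and ARRDC4 are shown because MLXIP with MLX is known to act through carbohydrate response elements there, which are pairs of E-box-like sites a few bases apart. The sequences are RefSeq's (GRCh38.p14), the 250 bases before the gene start, read 5′ to 3′ on the strand of the gene. Capitals mark matches to the E-box-like site CACGNG and to the CCAAT box, the binding site of the factor NF-Y, on either strand.
TXNIP, chr1:145996580-145996829, minus strand: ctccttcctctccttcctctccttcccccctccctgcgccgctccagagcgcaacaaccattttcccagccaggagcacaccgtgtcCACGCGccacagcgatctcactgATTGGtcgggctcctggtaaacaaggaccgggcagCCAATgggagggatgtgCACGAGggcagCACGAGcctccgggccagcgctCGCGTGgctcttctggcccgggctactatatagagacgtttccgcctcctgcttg
ARRDC4, chr15:97960453-97960702, plus strand: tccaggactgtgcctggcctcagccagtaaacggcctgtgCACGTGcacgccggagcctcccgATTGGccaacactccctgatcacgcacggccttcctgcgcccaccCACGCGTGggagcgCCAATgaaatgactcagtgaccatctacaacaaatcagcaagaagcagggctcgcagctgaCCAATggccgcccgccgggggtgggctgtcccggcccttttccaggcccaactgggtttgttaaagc
Positions are counted from the start, with bases before it negative. In TXNIP, 2 E-box-like sites stood as a pair from -88 to -72, as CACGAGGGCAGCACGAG, with 5 bases between them. A CCAAT box lay at -105 as the gene is read and another at -140 on the other strand. This exact spacing (CACGNG, 5 bases of any kind, CACGNG) was found on either strand in 20 of 35116 promoter windows of 300 bases, or 0.057%. Both sites of this pattern read in the same direction, which is the form of the TXNIP pair. The match in TXNIP and its rarity therefore depend on that choice of pattern. Pairs with sites in opposite directions were not searched for. In ARRDC4 the exact pair was not in the window. Whether ARRDC4 holds a carbohydrate response element of another form was not tested. The E-box-like sites of ARRDC4 stood at -210, as the palindrome CACGTG that reads alike on both strands. Others were overlapping matches on opposite strands at -142 and -140. Its window held 3 CCAAT boxes.

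All 7 genes had a window, and for the 3 with more than 1 the window nearest the GENCODE gene start was taken. E-box-like sites alone were common, in 30.5% of all windows, and CCAAT boxes were in 34.6%. Among the members, ARRDC2 held 3 E-box-like sites and TXN 1, and neither held a CCAAT box. ARRDC1, ARRDC3 and MLXIP held no E-box-like site and 1 CCAAT box each. A FOXO site, GTAAACA, was found in the TXNIP window, from -124 to -118 and apart from the other motifs, and in 3.42% of all windows. The core of the amino acid response element, TGATGNAA, which ATF4 and C/EBP factors bind, was in none of the 7 windows and in 3.62% of all. A match is a run of letters and no evidence of binding. Of the 20 genes with the exact pair, 16 were tested, of which 8 passed as higher (TXNIP among them) and 0 as lower, beside the 30.6% and 21.4% of all tested genes. The other 8 did not pass. This list was drawn up after the values were known, so nothing is read from its counts. The highest of its other genes was GFPT1, an enzyme of hexosamine synthesis, with a difference of 1.65. It is named for that value alone.

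**Figure D2:**
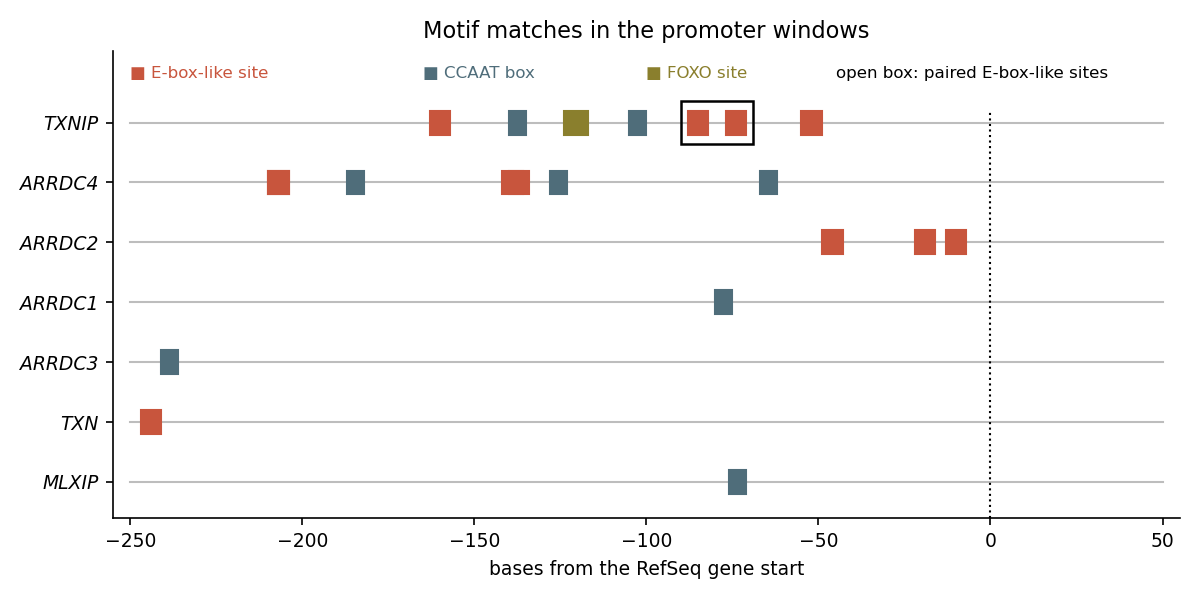
Positions of motif matches in the RefSeq promoter windows of the 7 genes, in bases from the gene start (dotted line at 0), with E-box-like sites in red, CCAAT boxes in blue, the FOXO site in olive and the paired sites of TXNIP in an open box. The pair with both sites in the same direction, the only form searched for, appears in the TXNIP window alone among the 7. TXNIP and ARRDC4 are the members that hold both E-box-like sites and CCAAT boxes.

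ARRDC2, ARRDC1 and ARRDC3 differed less. ARRDC2 (chromosome 19, 18001132 to 18014102, plus strand) stood at 3.30, 3.65 and 3.20 FPKM in control and at 4.69, 5.11 and 5.30 FPKM with Agrimol B. Its means of 3.39 ± 0.238 and 5.03 ± 0.314 FPKM (SD, n = 3) gave a ratio of 1.49 and a difference of 0.46 (SE 0.07). The groups did not overlap, and the lowest Agrimol B value was 1.28 times the highest control value.

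ARRDC1 (chromosome 9, 137605654 to 137615360, plus strand), which drives the budding of small vesicles from the plasma membrane, stood at 7.03, 6.33 and 6.14 FPKM in control and at 7.89, 9.33 and 8.77 FPKM with Agrimol B. Its means were 6.50 ± 0.466 and 8.66 ± 0.722 FPKM, a ratio of 1.33 and a difference of 0.36 (SE 0.08). The gap between the groups was narrow, at 1.12 times from the highest control to the lowest Agrimol B value. ARRDC1 shares exon sequence with an annotated transcript on its strand and with an antisense gene, and the authors' use of strand in counting is not given.

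ARRDC3 (chromosome 5, 91368724 to 91383359, minus strand), an adaptor in the ubiquitination and sorting of membrane receptors, stood at 3.80, 3.87 and 3.54 FPKM in control and at 4.71, 4.79 and 4.81 FPKM with Agrimol B. Its means were 3.74 ± 0.171 and 4.77 ± 0.0573 FPKM, a ratio of 1.28 and a difference of 0.28 (SE 0.05). It was the smallest difference among the 5 arrestin-fold members, yet the groups did not overlap. ARRDC2 and ARRDC3 each share exon sequence with an annotated gene on the other strand.

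**Figure D3:**
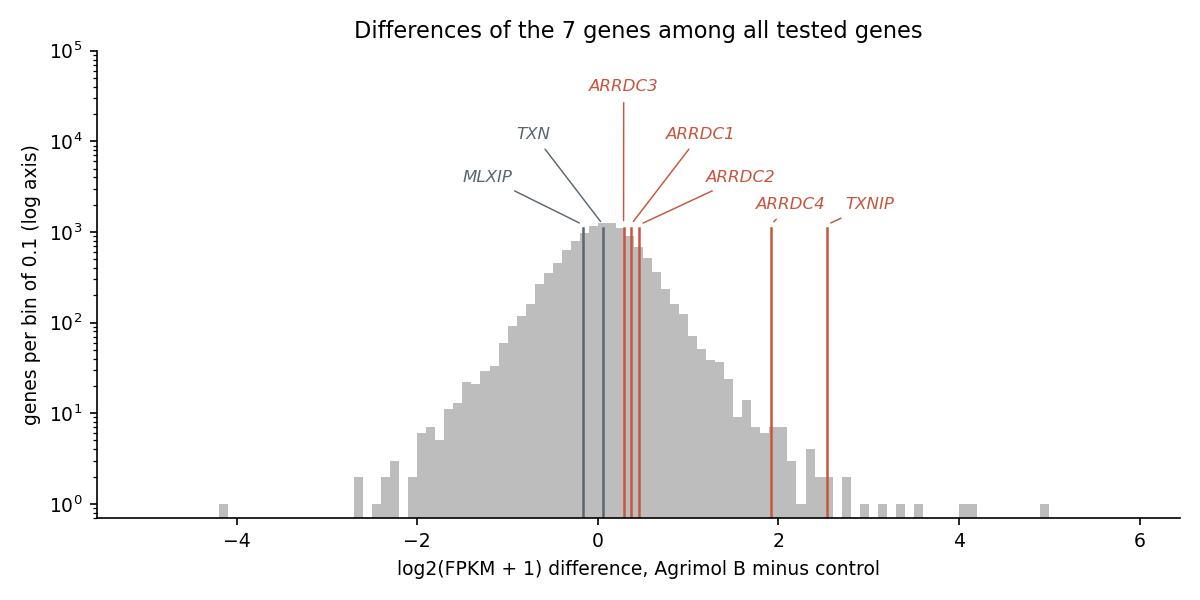
Histogram of the log2(FPKM + 1) differences (Agrimol B minus control) of the 12143 tested genes in bins of 0.1, with a logarithmic count axis and lines at the 7 genes, red where they passed as higher and grey where they did not pass. TXNIP and ARRDC4 lie in the far right tail, ARRDC1, ARRDC2 and ARRDC3 on the right shoulder, and TXN and MLXIP near the centre (TXN crosses 0 with median-ratio scaling).

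The gene of the factor known to drive TXNIP was not higher with Agrimol B. MLXIP (chromosome 12, 122078722 to 122147347, plus strand) stood at 12.0, 13.9 and 12.8 FPKM in control and at 11.5, 11.1 and 11.7 FPKM with Agrimol B. All 3 Agrimol B values lay below the control values, by as little as from 12.0 to 11.7 FPKM. The means were 12.9 ± 0.986 and 11.4 ± 0.282 FPKM, with a difference of -0.16 (SE 0.06, 95% interval -0.32 to -0.01) that did not pass after adjustment. MLXIP passed as lower with median-ratio scaling, with quantile normalization and without control library 1 (differences of -0.23, -0.24 and -0.21).

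TXN (chromosome 9, 110243811 to 110256640, minus strand) was the most abundant member, above 98.4% of tested genes in control. It stood at 215, 225 and 228 FPKM in control and at 225, 247 and 224 FPKM with Agrimol B. The groups overlapped, with means of 223 ± 6.48 and 232 ± 12.8 FPKM and a difference of 0.06 (SE 0.05, 95% interval -0.06 to 0.18). With quantile normalization TXN passed as higher (0.14), and with median-ratio scaling the sign turned (-0.01). GENCODE release 29 names 7 pseudogenes of TXN, and how reads shared with them were counted is not given.

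The order of levels, which FPKM allows because it is scaled to length, changed in the middle of the set. In control cells TXN stood first, followed by MLXIP and ARRDC1, whose ranges did not overlap. ARRDC3, ARRDC2 and TXNIP came next at 3.74, 3.39 and 3.30 FPKM, and in both neighbouring pairs the ranges overlapped. ARRDC4 stood last, apart from the rest. With Agrimol B, TXNIP took the place below TXN and stood above MLXIP in all 3 libraries. ARRDC4 came to stand beside ARRDC1, with overlapping ranges, and ARRDC2 and ARRDC3 were last, also with overlapping ranges.

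Within each library, TXN exceeded TXNIP by a factor of 67.6, 61.0 and 75.5 in control and of 9.53, 10.5 and 9.10 with Agrimol B. The ratio was thus lower in every Agrimol B library than in any control library. The ratio of TXNIP to ARRDC4 was 2.50, 2.68 and 2.44 in control and 3.21, 3.16 and 2.99 with Agrimol B, higher in all 3 Agrimol B libraries although both genes rose several-fold. TXNIP to ARRDC3, by contrast, went from 0.881 ± 0.0622 to 5.01 ± 0.110 (SD, n = 3). The summed level of TXNIP and ARRDC1 to ARRDC4 was 18.2 ± 0.945 FPKM in control and 50.0 ± 1.70 FPKM with Agrimol B. TXNIP made up 18.1% ± 1.24 of that sum in control and 47.8% ± 1.10 with Agrimol B.

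**Figure D4:**
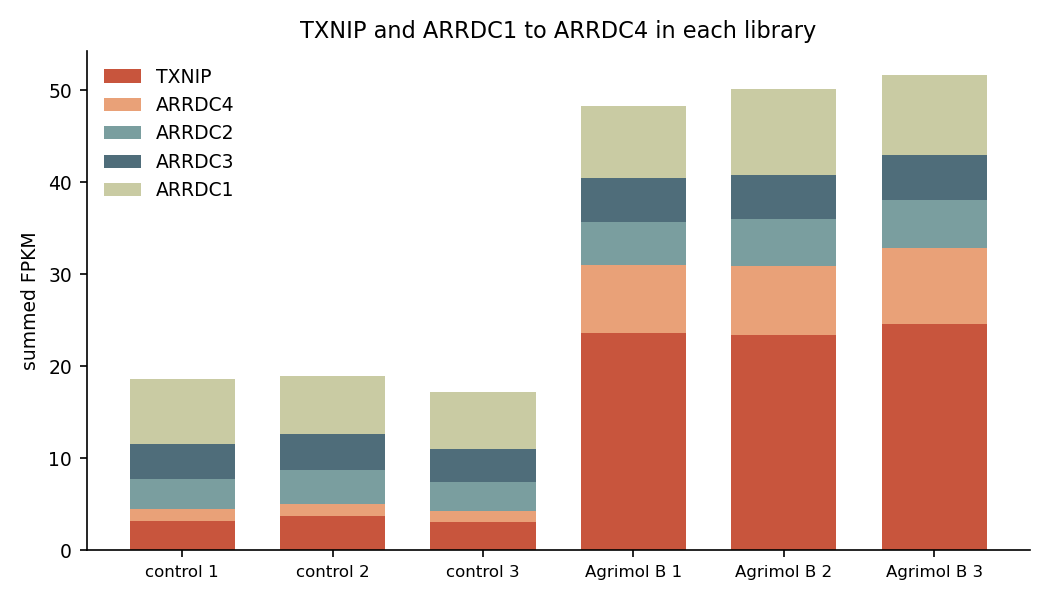
Stacked FPKM of TXNIP, ARRDC4, ARRDC2, ARRDC3 and ARRDC1 in each of the 6 libraries (bars from 0). The sum is 17.1 to 18.9 FPKM in control and 48.3 to 51.7 FPKM in Agrimol B libraries, and TXNIP is the largest segment in every Agrimol B bar.

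The profiles most like that of TXNIP were sought among the 8882 tested genes averaging 5 FPKM or more, by the root mean square distance between centred log2(FPKM + 1) values over the 6 libraries. This measure follows the size of the group difference above all. The 5 nearest were CEBPB (0.05), PPP1R15A (0.09), CAMTA2 (0.09), VGF (0.12) and AKNA (0.15). CEBPB, a basic leucine zipper transcription factor, stood at 20.8 ± 0.975 FPKM in control and 128 ± 1.28 FPKM with Agrimol B. PPP1R15A, the stress-induced subunit that directs a phosphatase to eIF2-alpha, stood at 53.7 ± 0.883 and 293 ± 11.9 FPKM. ARRDC4 lay at a distance of 0.31 from TXNIP, and the other members at 1.04 or more. The added 1 FPKM shrinks the difference of a gene as low as ARRDC4, so distance and ratio rank genes differently. The ratio of ARRDC4 (5.92) was nearer to that of TXNIP (7.25) than were those of PPP1R15A (5.45) and CAMTA2 (5.63). Those of CEBPB (6.18), AKNA (6.23) and VGF (7.09) were nearer still. The 3 nearest to ARRDC4 were SLC22A15 (0.05), MXD1 (0.08) and DDIT4 (0.08), with ratios of 4.96, 6.18 and 4.36. SLC22A15, a solute carrier, stood at 2.60 ± 0.0254 and 12.9 ± 0.0704 FPKM.

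The other genes of the pathway were taken from 11 lists drawn up by known role, 133 genes in all. The table contained 123 of them, and 113 were tested. Of these 113, 37 rose (32.7%) and 30 fell (26.5%), beside 30.6% and 21.4% of all tested genes, with a median difference of 0.06 against 0.07 over all tested genes. Adjusted p-values below are from limma over all tested genes.

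Among 10 factors of the Mondo, MLX and MAX network, 4 rose and 1 fell (median 0.20). MXD1, a MAX partner that represses transcription, stood at 1.38, 1.69 and 1.47 FPKM in control and at 8.81, 9.53 and 9.71 FPKM with Agrimol B, a ratio of 6.18 (difference 2.04, SE 0.07, adjusted p = 1.78e-05). MAX, the common partner of this network, stood between 17.1 and 18.2 FPKM in control and at 55.2, 30.1 and 52.5 FPKM with Agrimol B, so that Agrimol B library 2 lay well below the other treated libraries (difference 1.29, adjusted p = 0.00428). MXD3 fell 2.43-fold (difference -1.08, adjusted p = 0.000952). MLX, the obligate partner of MLXIP, stood at 21.3 ± 0.912 and 24.5 ± 1.85 FPKM (difference 0.19, adjusted p = 0.0519). It passed only without Agrimol B library 1 (difference 0.24, adjusted p = 0.0321, range over the alternatives 0.0321 to 0.168).

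Of 14 tested targets of MLXIP or of its relative MLXIPL (ChREBP), 5 rose and 6 fell (median -0.07). HK2, the hexokinase that makes glucose 6-phosphate, rose 2.64-fold from 10.9 ± 0.174 to 28.8 ± 0.842 FPKM (difference 1.32, adjusted p = 1.46e-05). KLF10, a zinc finger factor, rose 2.35-fold (difference 1.15, adjusted p = 0.00029). SCD, the stearoyl-CoA desaturase, fell 1.94-fold (difference -0.95, adjusted p = 1.65e-05). The list thus held genes that rose and genes that fell. The part of MLXIP in these differences, or in those of TXNIP and ARRDC4, was not tested.

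Of 25 tested genes of the thioredoxin system, 8 rose and 7 fell (median 0.02). With median-ratio scaling 6 rose and 9 fell, and with quantile normalization 7 rose and 9 fell. PRDX3 and PRDX1, peroxiredoxins that thioredoxins keep reduced in mitochondria and cytosol, fell 1.78-fold and 1.76-fold (differences -0.82 and -0.81, adjusted p = 3.96e-05 and 0.000246). PRDX1 stood at 434, 494 and 517 FPKM in control and at 273, 271 and 277 FPKM with Agrimol B. GLRX2, a glutaredoxin, rose 1.68-fold (difference 0.72, adjusted p = 6.58e-05). TXN2, the mitochondrial thioredoxin, did not pass (37.7 ± 1.61 and 33.9 ± 1.49 FPKM, adjusted p = 0.0535) but passed as lower with median-ratio scaling and quantile normalization (adjusted p = 0.0155 and 0.0235, range over the alternatives 0.0155 to 0.147).

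TXNRD1, the cytosolic thioredoxin reductase, stood at 122, 69.9 and 133 FPKM in control and at 160, 154 and 147 FPKM with Agrimol B. Control library 2 lay far below the other control libraries, and the difference of 0.55 did not pass (adjusted p = 0.0957). Without that library it was 0.27 and passed (adjusted p = 0.0178, range over the alternatives 0.0178 to 0.197).

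Of 5 tested genes in the list of other arrestin-fold genes, 0 rose and 2 fell (median -0.03), and without control library 3 the number that rose was 1. ARRB2 and ARRB1, the beta-arrestins that switch off G protein-coupled receptors, fell 1.42-fold and 1.51-fold. ARRB2 stood at 36.4, 35.5 and 35.4 FPKM in control and at 30.1, 22.4 and 23.1 FPKM with Agrimol B (difference -0.50, adjusted p = 0.0111). ARRB1 stood at 3.51, 3.44 and 3.76 FPKM and at 2.48, 2.13 and 2.49 FPKM (difference -0.44, adjusted p = 0.00289). The 2 of 5 that fell stand beside 21.4% of all tested genes. In both, all 3 Agrimol B values lay below all 3 control values, which held for 26% of tested genes. With all 6 libraries VPS26A, VPS26B and VPS26C of this list did not pass (differences -0.03, 0.01 and 0.135).

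Of 11 tested NEDD4-family ligases and adaptors, the partners that arrestin domain proteins recruit, 5 rose and 1 fell (median 0.20). The number that fell was 0 without Agrimol B library 2, without control library 2 or 3 and with the replicate block, and 2 with median-ratio scaling or quantile normalization. NEDD4L rose 1.51-fold from 9.06 ± 0.554 to 13.7 ± 0.268 FPKM (difference 0.54, adjusted p = 0.00055) and HECW2 rose 1.57-fold (difference 0.48, adjusted p = 0.00292). WWP1 fell 1.42-fold (difference -0.45, adjusted p = 0.0263). Its call was lost without Agrimol B library 2 or 3, without control library 2 or 3 and with the replicate block (adjusted p 0.0705 to 0.079, range over the alternatives 0.00695 to 0.079).

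Of 9 tested glucose transporters and hexokinases, 3 rose and 2 fell (median 0.23). SLC2A1 (GLUT1), a transporter that TXNIP and ARRDC4 are known to restrain, fell 1.12-fold, from 29.4, 29.1 and 29.9 FPKM to 26.3, 26.4 and 26.0 FPKM (difference -0.16, adjusted p = 0.012). The groups did not overlap, although the difference was small. SLC2A6, a transporter of lysosomal membranes, fell 2.02-fold (difference -0.93, adjusted p = 0.000334). HKDC1, a hexokinase of low level, rose 2.49-fold from 1.46 ± 0.123 to 3.65 ± 0.290 FPKM (difference 0.92, adjusted p = 0.000231).

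Among 9 tested kinase genes whose products phosphorylate TXNIP, the AMPK subunits and AKT kinases, 3 rose and 2 fell (median 0.12). The number that fell was 0 without Agrimol B library 2 or control library 3, and 1 without Agrimol B library 1 or 3 or control library 1. The AMPK beta subunit genes PRKAB2 and PRKAB1 rose 2.17-fold and 1.86-fold (differences 1.06 and 0.83, adjusted p = 3.73e-05 and 0.000149). PRKAB2 stood at 12.6, 12.2 and 12.6 FPKM in control and at 26.8, 26.1 and 28.3 FPKM with Agrimol B. PRKAG2, a gamma subunit, fell 1.32-fold (difference -0.35, adjusted p = 0.0242), a call lost when any library except control library 2 was left out (adjusted p 0.0551 to 0.0735, range over the alternatives 0.00316 to 0.0735).

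Of 8 tested cargo and vesicle partners of the arrestin domain proteins, 2 rose and 3 fell (median -0.05). F2R, the thrombin receptor whose sorting ARRDC3 controls, fell 2.73-fold from 17.7 ± 1.25 to 6.49 ± 0.309 FPKM (difference -1.32, adjusted p = 5.04e-05). TSG101, the ESCRT protein that ARRDC1 recruits for vesicle budding, rose 1.74-fold from 39.4 ± 0.679 to 68.5 ± 5.83 FPKM (difference 0.78, adjusted p = 0.000277).

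Of 9 tested factors other than MLXIP that are known to act on the TXNIP promoter, 2 rose and 4 fell (median -0.17). The number that rose was 1 without Agrimol B library 1 or 2, without control library 2 or 3, and with median-ratio scaling or quantile normalization, and the number that fell was 2 without control library 2. VDR, the vitamin D receptor, rose 1.99-fold (difference 0.77, adjusted p = 0.00141). FOXO1 fell 1.54-fold, from 4.93 ± 0.406 to 3.20 ± 0.140 FPKM (difference -0.50, adjusted p = 0.00183). NFYB, a subunit of the CCAAT-binding factor NF-Y, fell 1.39-fold (difference -0.44, adjusted p = 0.00222).

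ARRDC2, ARRDC3 and TXNIP are also known to respond to glucocorticoids and to FOXO factors, so targets of both were listed. Of 8 tested glucocorticoid receptor targets, 3 rose and 1 fell (median -0.001). The number that fell was 0 without Agrimol B library 2 or 3, without control library 1 or 3 and with the replicate block, and 2 with median-ratio scaling or quantile normalization. TSC22D3 (GILZ) rose 2.00-fold, DUSP1 1.51-fold and KLF15 1.46-fold (differences 0.88, 0.57 and 0.47, adjusted p = 0.00101, 0.000319 and 0.000508). FKBP5 fell 1.13-fold (difference -0.17, adjusted p = 0.0288), and the other 4 did not pass. The list of FOXO targets held 12 genes, of which 8 were tested. Of these, 4 rose and 2 fell (median 0.23). The number that fell was 1 without Agrimol B library 2 or 3 or control library 3. CCNG2 and CITED2 fell 1.27-fold and 1.22-fold (differences -0.27 and -0.26, adjusted p = 0.0201 and 0.0147). SESN3 and PIK3IP1, too low to be tested, were lower in every Agrimol B library (means 0.504 against 1.08 and 0.327 against 0.69 FPKM). PDK4 and TRIM63, also untested, overlapped between groups. IRS2, an insulin receptor substrate, rose 1.65-fold and BCL6, a transcriptional repressor, 1.51-fold (differences 0.65 and 0.47, adjusted p = 0.000224 and 0.000797). FBXO32 rose 1.87-fold from 1.44 ± 0.394 FPKM (difference 0.60, adjusted p = 0.023), a call lost without Agrimol B library 1 or 2 (adjusted p = 0.0581 and 0.0635, range over the alternatives 0.0226 to 0.0635).

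**Figure D5:**
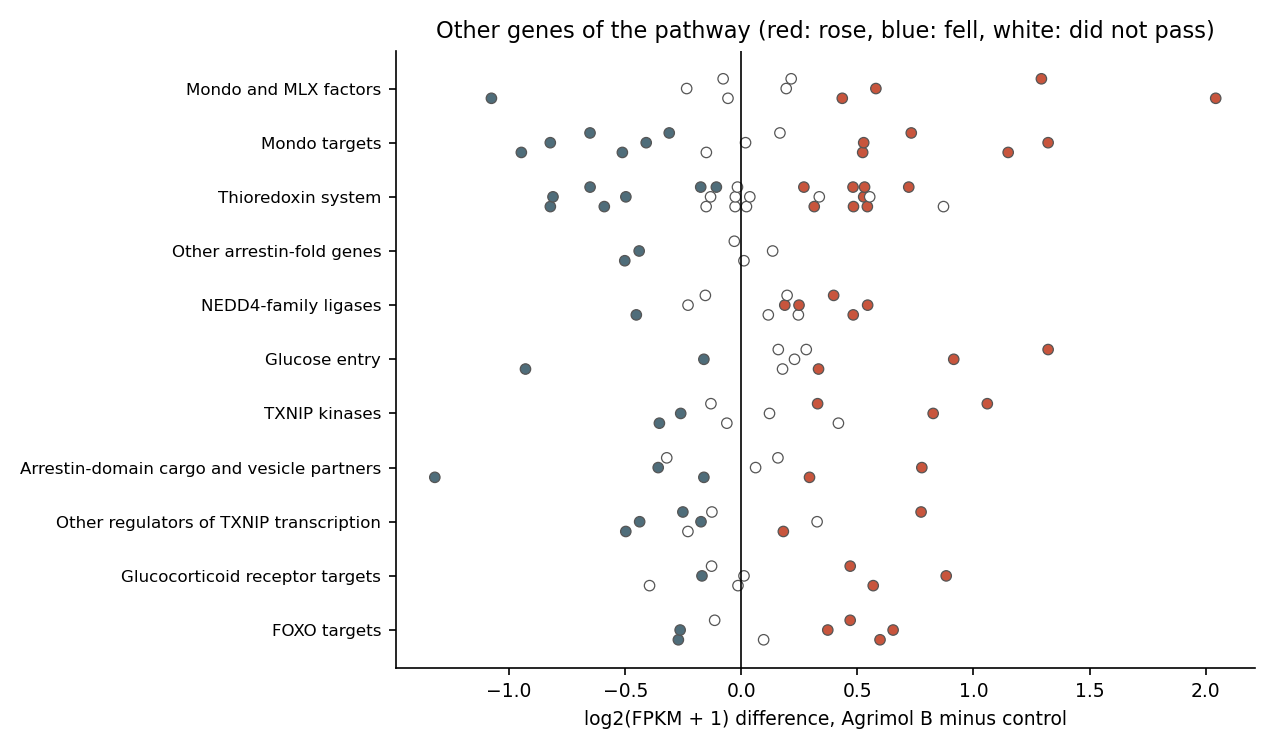
Differences in log2(FPKM + 1), Agrimol B minus control, of the tested genes of each of the 11 lists (1 point per gene, offset only for legibility), red where the gene rose, blue where it fell and white where it did not pass. With all 6 libraries the list of other arrestin-fold genes shows 0 that rose and 2 that fell, and the other lists show points of both colours; without control library 3, 1 gene of that list rose, and 0 genes fell among the NEDD4-family ligases and among the glucocorticoid receptor targets.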

How the data were processed

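RNA of 6 HOS libraries was sequenced after preparation with a KAPA stranded kit, per the labels' protocols. The authors deposited FPKM values, 1 column per library. FastQC, cutadapt, Trimmomatic, HISAT and hg38 are named per the submitters' processing notes. The quantifier, its annotation and its strand setting were not given in the sources used here. Control columns were matched to the control samples by number and by the letters of their descriptions, which stand in the other order.

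FPKM values were put on the log2(FPKM + 1) scale. The 12143 genes averaging 1 FPKM or more were compared by limma 3.58.1 under R 4.3.3, with a group term and a trended prior variance, as a two-sided test. Benjamini-Hochberg adjustment ran over all of them, at a threshold of 0.05. Python 3.11.15 served the remaining steps, and gene positions came from GENCODE release 29. The labels do not say that libraries came from separate cultures, so p-values measure only the spread between libraries, which may be technical.

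The members and lists were chosen with earlier results of these data known. Named are the members, up to 3 genes per list with the largest differences among those that passed, the list genes TXN2, TXNRD1, MLX, SLC2A1, HK2, ARRB1 and ARRB2 whatever their values, and the nearest profiles of TXNIP (5) and ARRDC4 (3). GFPT1, FKBP5, CCNG2, CITED2, SESN3, PIK3IP1, PDK4 and TRIM63 were chosen after their values were seen. One gene that the rule names is not reported here. Alternatives were a pseudocount of 0.1, a filter of 5 FPKM or none, median-ratio scaling, quantile normalization, no variance trend, a replicate block and each library left out.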

Additional observations from a re-analysis of the deposited data

How the results depend on the processing

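Under the 13 alternatives, TXNIP (differences 2.47 to 2.83), ARRDC4 (1.85 to 2.48), ARRDC2 (0.39 to 0.56), ARRDC1 (0.28 to 0.42) and ARRDC3 (0.21 to 0.34) passed as higher wherever they were tested. With a filter of 5 FPKM, ARRDC2, ARRDC3 and ARRDC4 fell below the filter and 2 members passed as higher. That filter tests fewer genes, and it left 1 glucose entry gene (of 3), 1 FOXO target (of 4) and 1 regulator of TXNIP (of 2) as higher, and 1 other arrestin-fold gene (of 2) and 1 FOXO target (of 2) as lower. The number of members that passed as lower went from 0 to 1, MLXIP, with median-ratio scaling and with quantile normalization, and was 0 to 1 when 1 library was left out (1 without control library 1). The difference of TXN was -0.0126 with median-ratio scaling, against 0.0579 without it. That scaling also moved the median difference over all tested genes, from 0.0652 to 0.003. The cause of the sign change was not tested. The number of genes that passed as higher was 3713, against 3067 with median-ratio scaling and 3101 with quantile normalization, and 2598, 3164 and 3083 passed as lower.

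With the replicate number as a block, 3392 genes passed as higher and 2384 as lower, and the calls of the 7 members did not change. Deviations from the group means correlated at -0.01 to 0.04 between libraries of the same number, and at -0.07 to 0.07 between libraries of other numbers. These values show no pairing by number, but with so few libraries they cannot exclude it. For the 35 list genes that the naming rule picked, the alternatives gave 447 values. Of these, 431 kept their side of the threshold, 12 lost and 4 gained a call, and 0 changed sign. The number of reads behind a value is unknown, so the counting error of the lowest members cannot be given.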
